A study of Saccharomyces cerevisiae with 109 samples.

Results

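Heme, the iron-bearing ring that cytochromes, catalases and several sterol enzymes carry, is made in yeast by a linear pathway of 8 enzymes. The genes described here are those 8, HEM1, HEM2, HEM3, HEM4, HEM12, HEM13, HEM14 and HEM15, together with HAP1, a zinc-finger transcription factor whose activity depends on heme. They are 9 of the 5876 nuclear protein-coding genes measured, they were chosen by name, and all 9 passed the filter on low counts in every fit.

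The cells were haploid MATa budding yeast (Saccharomyces cerevisiae) of the W303 background, a laboratory strain that carries auxotrophic markers, among them ade2-1, in every group. Cultures were kept at 1 °C or 5 °C without added glutathione (low [GSH]) or with 250 µM of this thiol antioxidant (high [GSH]), and at 30 °C without it. 4-thiouracil (4tU), given at 5 mM, entered newly made RNA, which was then pulled out and sequenced after 6, 12, 24, 48 and 96 h at 1 °C, after 1.5, 3, 6, 12, 24, 48 and 96 h at 5 °C and after 5, 10 and 20 min at 30 °C. Time 0 of labelling and unselected (steady-state) RNA were sequenced as well, each with 3 biological replicates, except that 5 °C high [GSH] at 3 h and 12 h had 2 among the libraries used here. Cells of the fission yeast Schizosaccharomyces pombe, in a fixed amount, had been added before RNA extraction as a source of labelled spike-in RNA. Values per S. pombe read are therefore relative to these cells and are not amounts per S. cerevisiae cell.

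Depth differed widely between kinds of library. Reads assigned to S. cerevisiae mRNA ran from 7791032 to 32634257 in the 15 steady-state libraries, from 18937 to 47877835 in the 79 labelled libraries and from 8368 to 2032862 in the 15 libraries of time 0. The shallowest labelled libraries were those at 30 °C, where the 9 genes together had 6 to 33601 reads per library, against 12065 to 53557 at 1 °C low [GSH]. Of 107 pairs of replicates, 0 held identical values. In steady-state RNA the a-specific genes MFA2 and STE2 were at 1154 to 3685 and 150.1 to 244 mRNA TPM, and the a-specific BAR1 was at 18.8 to 50.8. Of the α-specific genes, the receptor gene STE3 was at 0.895 to 14.8 and SAG1 at 5.44 to 28.5, but the pheromone gene MF(ALPHA)1 ranged from 0.342 to 152, above BAR1 at its median of 67.2, and was higher in the cold than at 30 °C (log2 fold changes of 5.70 ± 0.41 at 1 °C and 5.08 ± 0.41 at 5 °C). This gene goes against the MATa label in the cold. Of the 4 α-specific genes listed, 3 were higher and 0 lower at 1 °C than at 30 °C, and 2 were higher and 1 lower at 5 °C. Of all genes, 36.9% were higher and 36.4% lower at 1 °C, and 36.5% and 37.9% at 5 °C. The part of these α-specific genes in the results below was not tested. No batch is given in the sources used here, so handling that differed between temperatures cannot be told apart from temperature, and in bulk RNA fewer cells of a kind and less RNA per cell cannot be told apart.

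The pathway begins in mitochondria, where Hem1 (5-aminolevulinate synthase) joins glycine and succinyl-CoA, continues in the cytosol with Hem2, Hem3, Hem4, Hem12 and Hem13, and returns to mitochondria for its end, protoporphyrinogen oxidase (Hem14) and ferrochelatase (Hem15), which inserts the iron. Hem13, coproporphyrinogen oxidase, needs molecular oxygen, and its gene is a textbook case of a gene that Rox1 represses in aerated cells with ample heme. HAP1 promotes ROX1 and many respiratory genes when heme is bound. In R64 coordinates HEM1 (YDR232W) lies on chromosome IV at 927452 to 929098, HEM13 (YDR044W) on chromosome IV at 546642 to 547628, HEM15 (YOR176W) on chromosome XV at 662401 to 663582 and HAP1 (YLR256W) on chromosome XII at 646415 to 650923.

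Sequences are shown for the stretches upstream of HEM1, HEM13 and HAP1 that hold ATTGTT, the core that Rox1 is known to bind, because HEM1 and HEM13 proved alike around it. They are 30 bases of the R64 genome (RefSeq), 5′ to 3′ on the strand of the gene, with the core in capitals, at chrIV:927149-927178, chrIV:546448-546477 and chrXII:646155-646184.
HEM1: cttgccttgcccATTGTTctgatccatgcg
HEM13: cttgctttgcccATTGTTctcgtttcgaaa
HAP1: cacacagacgctATTGTTctcccaaagaat
The windows of HEM1 and HEM13 were identical at 20 of 30 positions, with a run of 14 identical bases across the core. HAP1 shared 15 positions with HEM13 and 12 with HEM1. All windows were centred on the core, so its bases match in every pair by construction and count in these numbers. How many other positions unrelated windows would share was not tested. The core was found on either strand within 500 bases upstream of 7 of the 9 genes (not of HEM4 or HEM12) and of 48.9% of all 5876 genes. CCAAT, bound by the Hap2/3/4/5 complex, occurred upstream of 7 of the 9 (not of HEM12 or HAP1), 5 times in HEM2, and of 63.0% of all genes. The full Hap1 site (CGGNNNTA, then after 1 base CGG) was found upstream of 0 of the 9 and of 0.357% of all genes. The shorter CGGNNNTA alone was found upstream of HEM1, HEM3 and HAP1, and of 33.5% of all genes. A match or its lack describes the letters in this window and nothing about binding, and these 3 windows were picked after the matches were seen.

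The HAP1 model used for counting needs a caution. In the R64 genome, which is that of strain S288C, a Ty1 retrotransposon interrupts the end of HAP1, whereas W303 is known to carry an intact HAP1. The junction at chrXII:650794-650853 is printed to show it, with the first bases of the Ty1 long terminal repeat in capitals.
HAP1 junction: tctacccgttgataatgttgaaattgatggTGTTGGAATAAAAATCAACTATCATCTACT
The last 100 bases of the HAP1 model (2.22% of its 4509) belong to this repeat, and each of the 70 stretches of 31 bases in it occurred elsewhere in the genome. Reads of Ty1 RNA could therefore be split with this end of HAP1, and its values carry that uncertainty.

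Levels are given as mRNA TPM, Salmon's TPM rescaled over the 5876 genes, which is a share of all mRNA corrected for length. In steady-state RNA at 30 °C HEM2 was highest, at 126 ± 19.8 (SD, n = 3), followed by HEM15 and HEM1, and the libraries of these 3 genes overlapped in part. HEM14 was lowest at 25.7 ± 3.62. Its libraries lay below those of HEM4 and HEM13, and those of HAP1 overlapped all 3. At 5 °C low [GSH] the order differed at the top, with HEM15 at 202 and HEM1 at 180, and at 1 °C low [GSH] HEM1 was at 154, HEM15 at 133 and HEM2 at 125, whose libraries overlapped. HEM4 was at 31.7 to 44.5 across the 5 conditions, at the 26.1th to 45.5th percentile of genes. The first and last enzymes of the pathway thus stood in the upper part of the range of genes, at the 74.1th to 83.7th percentile, and HEM4 in the lower part. HEM2 (60.4th to 80.8th) and HEM3 (60.0th to 73.8th) were in the upper part too.

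**Figure D1:**
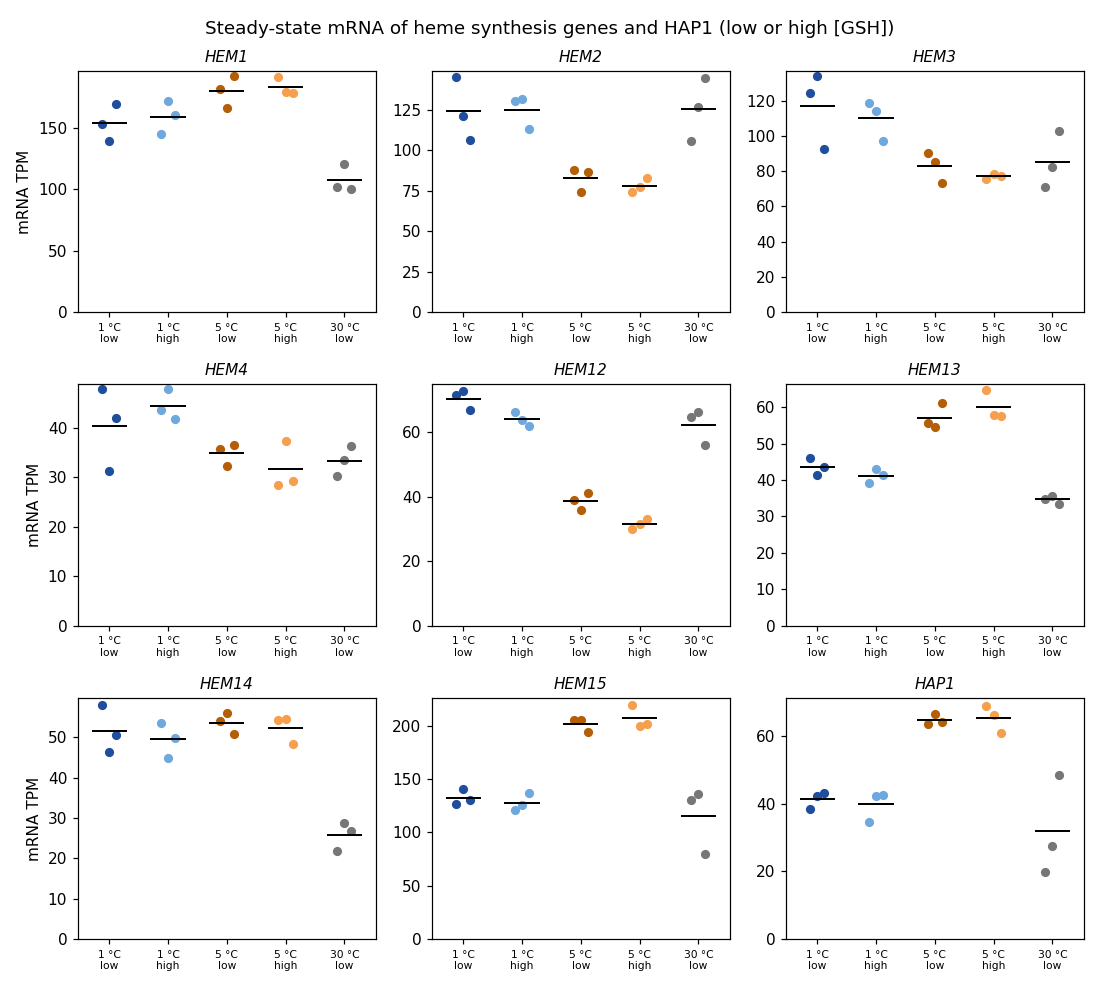
Steady-state level of each gene in mRNA TPM (y axis from 0) in the 5 conditions (x axis, 1 °C, 5 °C and 30 °C with low or high [GSH]). Points are single libraries and bars are means of 3. HEM12 was lower in all 6 libraries at 5 °C (29.8 to 41.1) than in all 6 at 1 °C (61.9 to 72.7), and HAP1 was higher at 5 °C (61.1 to 68.9) than at 1 °C (34.5 to 43.3).

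Changes were tested with edgeR on estimated read counts under TMM scaling, which takes most genes as unchanged, and a log2 fold change is therefore relative to the typical gene. Between 1 °C and 5 °C the pathway did not move as a block. At 1 °C low [GSH], against 5 °C, HEM2, HEM3 and HEM12 were higher, and HEM1, HEM13, HEM15 and HAP1 were lower. With high [GSH] these 7 moved the same way and HEM4 was higher as well. Per S. pombe read, in contrast, all 9 genes had higher estimates at 1 °C in both comparisons (0.45 to 2.23), as the median of all genes did (1.36 and 1.31).

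HEM12 (uroporphyrinogen decarboxylase) had the largest rise. Its level was 71.5, 72.7 and 66.9 mRNA TPM in the 3 libraries at 1 °C low [GSH] and 39.0, 35.9 and 41.1 at 5 °C low [GSH]. The groups were well apart, and the log2 fold change was 0.72 ± 0.10 (SE; edgeR adjusted p = 2.96e-05). With high [GSH] it was 0.93 ± 0.10 (adjusted p = 3.25e-06). HEM2 (5-aminolevulinate dehydratase) was at 146, 121 and 106 at 1 °C low [GSH] and at 88.2, 74.6 and 86.9 at 5 °C, with no overlap. Its log2 fold change was 0.44 ± 0.11 with low and 0.59 ± 0.11 with high [GSH]. HEM3 (porphobilinogen deaminase) followed at 0.35 ± 0.12 and 0.42 ± 0.12. The low [GSH] call of HEM3 was lost without 1 °C replicate 1 or 2 or 5 °C replicate 3, and the estimate stayed between 0.27 and 0.30.

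HEM15, HAP1 and HEM13 went the other way. HEM15 was at 126, 141 and 131 mRNA TPM at 1 °C low [GSH] and at 205, 205 and 194 at 5 °C, and its log2 fold change was −0.75 ± 0.17 with low and −0.78 ± 0.17 with high [GSH]. HAP1 was at 38.4, 42.2 and 43.3 at 1 °C low [GSH] and at 63.8, 66.7 and 64.2 at 5 °C, and its log2 fold changes were −0.79 ± 0.19 and −0.80 ± 0.19. Both genes separated the temperatures completely. HEM13 changed by −0.52 ± 0.09 and −0.64 ± 0.09. HEM1 changed by −0.36 ± 0.11 (adjusted p = 0.0115) and −0.29 ± 0.11 (adjusted p = 0.0315). When library sizes were set to the summed mRNA reads, so that changes are changes in read share, HEM1 was no longer called (−0.07 and −0.02), while the other 6 genes called with low [GSH] kept both call and direction and HEM4 was called as well (0.37). HEM14 with low [GSH] was called without 1 °C replicate 1 (−0.29). In all, 7 of 9 genes were called with low [GSH] (3 higher, 4 lower) where 58.7% of all genes were, and 8 of 9 (4 higher, 4 lower) with high [GSH], where 58.8% were. HEM4 with high [GSH] (0.39 ± 0.15, adjusted p = 0.041) lost its call when 1 °C replicate 1, 2 or 3 or 5 °C replicate 1 or 3 was left out and with the replicate number as a block (adjusted p = 0.0589). HEM1 lost its call without 1 °C replicate 2 with low [GSH], and without 1 °C replicate 1 or 3 or 5 °C replicate 1 or 2 with high [GSH]. The groups with low and with high [GSH] are separate cultures.

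**Figure D2:**
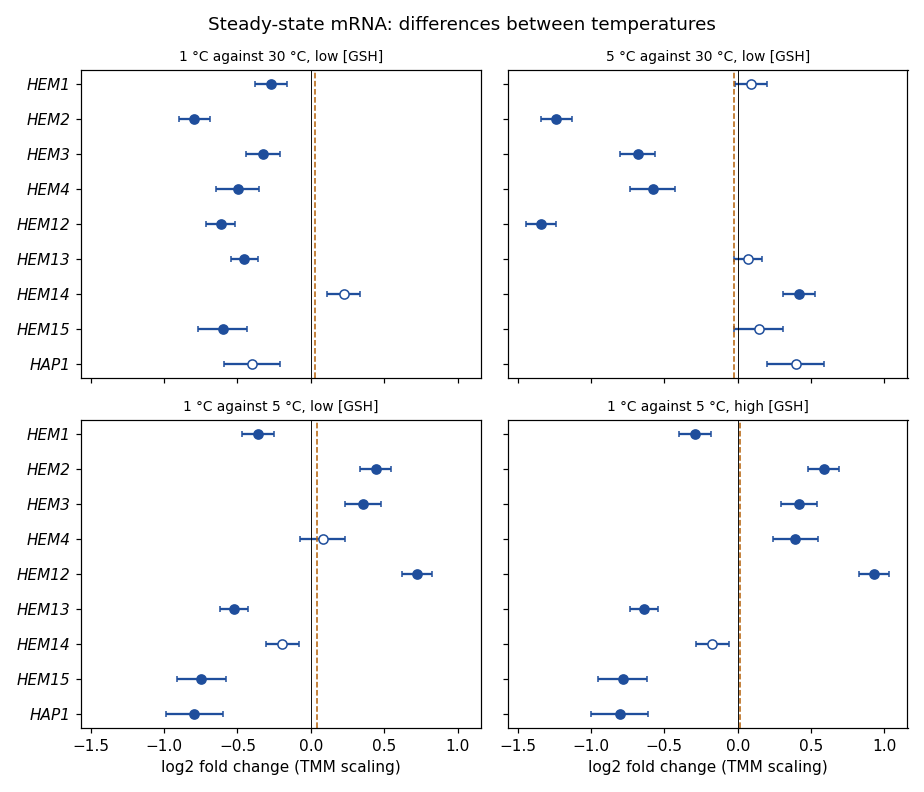
Log2 fold change of each gene in steady-state RNA (x axis, TMM scaling) in 4 comparisons, with bars of 1 standard error. Filled points passed an adjusted p of 0.05, and the dashed line is the median of all tested genes. Against 5 °C, HEM12 lay furthest to the right (0.72 and 0.93) and HAP1 furthest to the left (−0.79 and −0.80); with S. pombe library sizes all points of the comparisons with 5 °C lie to the right of 0.

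Against 30 °C the answer depended on the scale, and both are given. Relative to the typical gene, 7 of 9 genes were lower at 1 °C and 0 were higher, where 73.4% of all genes were called. The largest differences were those of HEM2 (−0.79 ± 0.11, adjusted p = 8.80e-06), HEM12 (−0.62 ± 0.10) and HEM15 (−0.60 ± 0.17), and the median over the 9 genes was −0.45, against 0.03 over all genes. By read share the median of all genes moved to 0.64, only HEM1 (0.34) and HEM14 (0.83) were called, both higher, and HEM1, HEM3, HEM4, HEM13, HEM15 and HAP1 (0.20, not called) turned from lower to higher estimates. Per S. pombe read all 9 estimates were higher at 1 °C (1.49 to 2.52), with the median of all genes at 2.29. A change of scale shifts all genes of a comparison by nearly the same amount. Every gene but HEM14 lay below the gene median on each scale, which is therefore a single result. HEM14 (protoporphyrinogen oxidase) was at 58.0, 46.2 and 50.5 mRNA TPM at 1 °C low [GSH] and at 21.7, 28.8 and 26.7 at 30 °C, and its TMM change was 0.22 ± 0.11 (adjusted p = 0.0797). It was called without 1 °C replicate 2 (0.33) or 30 °C replicate 2 (0.30).

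At 5 °C the pathway split more widely from 30 °C. HEM12 (−1.34 ± 0.10, adjusted p = 2.36e-08) and HEM2 (−1.23 ± 0.11, adjusted p = 1.04e-07) were lower, by 2.53-fold and 2.35-fold. HEM3 (−0.68 ± 0.12) and HEM4 (−0.58 ± 0.15) were lower too, and HEM14 was higher (0.42 ± 0.11). These 5 of 9 calls stood where 74.5% of all genes were called. HEM12 and HEM2 were also lower by read share (−1.02 and −0.92, both called). HEM14, higher relative to the typical gene, was hence higher on the other scales too, which raise all genes at 5 °C. By read share HEM4 (−0.26) was no longer called, and HEM1 (0.41), HEM13 (0.39), HEM15 (0.47) and HAP1 (0.70) were called higher. Per S. pombe read HEM3 and HEM4 had higher estimates (0.24 and 0.37, not called) and HEM12 and HEM2 lower ones (−0.38 and −0.30, not called).

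One 30 °C library weighed on HAP1 and HEM15. HAP1 was at 19.8, 27.6 and 48.4 mRNA TPM in replicates 1, 2 and 3 at 30 °C, and HEM15 at 130, 136 and 79.8. Replicate 3 thus stood apart in opposite directions for these genes. HAP1 against 30 °C was not called at 5 °C (0.39 ± 0.19, adjusted p = 0.0764). Without replicate 3 it was called, at 0.77 (adjusted p = 2.31e-05), and with the replicate block too (adjusted p = 0.0406). At 1 °C HAP1 was −0.40 ± 0.19 (adjusted p = 0.0735), −0.03 without replicate 3 and −0.61 (adjusted p = 0.00378) without replicate 1. HEM15 at 1 °C was −0.84 without replicate 3. HEM1 at 1 °C lost its call when 1 °C replicate 1 or 2 or 30 °C replicate 1 or 2 was left out and with the replicate block (adjusted p = 0.0501), and HEM3 without 1 °C replicate 3 or 30 °C replicate 3.

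The study asks what added GSH does to cells in the cold, so high and low [GSH] were compared within each temperature. No member was called in steady-state RNA at 1 °C or at 5 °C, or in the difference of these 2 effects. In these 3 comparisons 0.0% of all genes passed edgeR's test, with 298, 43 and 61 genes at an unadjusted p under 0.05 and 0 genes by DESeq2. The 9 estimates lay between −0.07 and 0.19 at 1 °C and between −0.28 and 0.09 at 5 °C. The intervals of 2 standard errors around them reached from −0.36 to 0.49 at 1 °C and from −0.49 to 0.41 at 5 °C. These are the outermost ends over the 9 genes, and single intervals were narrower. That of HEM13 at 1 °C was −0.21 to 0.16, and that of HEM12 at 5 °C was −0.49 to −0.07. A change within a gene's own interval could have been missed. HEM12 at 5 °C was nearest to a difference, at 39.0, 35.9 and 41.1 mRNA TPM with low and 29.8, 31.6 and 33.0 with high [GSH], groups that did not overlap, but its adjusted p was 1.0 (−0.28 ± 0.11).

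Labelled RNA was also summed over 6, 24, 48 and 96 h, times that all 12 cold cultures share, which gave 1 value per culture. HEM1 differed most in it. It was lower at 1 °C, with log2 fold changes of −0.75 ± 0.12 with low [GSH] (adjusted p = 0.000113) and −0.93 ± 0.12 with high [GSH]. HAP1 was lower as well (−0.58 ± 0.10 and −0.72 ± 0.10), as were HEM4, HEM13 and HEM15, while HEM3 was higher (0.39 ± 0.08 and 0.30 ± 0.08). HEM12 and HEM2 were not called (0.23 and −0.18 with low [GSH]). The count was 7 of 9 with low [GSH] (1 higher), where 60.0% of all genes were called, and 6 of 9 with high [GSH] (1 higher), where 62.0% were. By read share HEM14 with low [GSH] moved from −0.24 to 0.02, and 4 genes were called: HEM1, HEM3 and HAP1 as before and HEM12 (0.48), which was not called relative to the typical gene, while HEM4, HEM13, HEM14 and HEM15 were not; per S. pombe read the genes lower at 1 °C with low [GSH] had higher estimates, with the gene median at 1.10. With low [GSH] the call of HEM13 was lost without 1 °C replicate 1 or 2 or 5 °C replicate 2 or 3 (−0.32 to −0.24), and that of HEM14 without 1 °C replicate 1 or 2 or 5 °C replicate 1 (−0.21 to −0.18). With high [GSH] HEM12 was called without 1 °C replicate 1 (0.29), and HEM2 without 5 °C replicate 1 or 3 (−0.34 and −0.33). For GSH in these sums 0.0% of all genes passed at 1 °C, at 5 °C and in the difference (110, 414 and 175 genes at an unadjusted p under 0.05, and 1, 6 and 0 by DESeq2), and the estimates of the 9 genes lay between −0.19 and 0.22.

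The plainest pattern was in labelling time. As labelling went on, HEM1 and HEM3 took a falling share of labelled mRNA and HEM15 a rising one, at both temperatures and with both [GSH]. At 5 °C low [GSH] HEM1 was at 383, 598 and 697 mRNA TPM after 1.5 h and at 197, 245 and 219 after 48 h. HEM3 was at 251, 247 and 231 after 1.5 h and at 96.5, 86.6 and 90.3 after 48 h. HEM15 was at 44.5, 42.3 and 40.3 after 1.5 h and at 169, 131 and 151 after 48 h. None of these early and late groups overlapped. The first and the last enzyme's genes thus stood far apart after 1.5 h and closer after 48 h, when HEM1 was still higher in each culture and their values did not overlap.

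The changes at 5 °C from 1.5 to 48 h were −1.02 ± 0.17 for HEM1, −1.10 ± 0.14 for HEM3 and 2.14 ± 0.15 for HEM15 with low [GSH] (adjusted p = 1.04e-06, 9.77e-10 and 2.03e-18). With high [GSH] they were −0.97 ± 0.17, −1.12 ± 0.14 and 2.14 ± 0.15. At 1 °C from 6 to 48 h HEM1 changed by −0.74 ± 0.17 and −0.75 ± 0.17 with low and high [GSH], HEM3 by −0.84 ± 0.14 and −0.63 ± 0.14, and HEM15 by 0.70 ± 0.14 and 1.01 ± 0.14. HAP1 fell in 3 of the 4 comparisons (−0.66 ± 0.19 in both at 1 °C and −0.52 ± 0.19 at 5 °C low [GSH]) and was −0.18 ± 0.19 (not called) at 5 °C high [GSH]. These values are relative to the typical gene, and read shares gave the same directions. Per S. pombe read, however, the estimates of HEM1, HEM3 and HAP1 rose with time as well (0.62 to 2.41), as the gene median did (1.43 to 2.56). Without replicate 3 the calls of HEM1 (−0.45, adjusted p = 0.0664) and HAP1 (−0.43, adjusted p = 0.109) at 1 °C low [GSH] and of HAP1 (−0.32, adjusted p = 0.236) at 5 °C low [GSH] were lost.

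**Figure D3:**
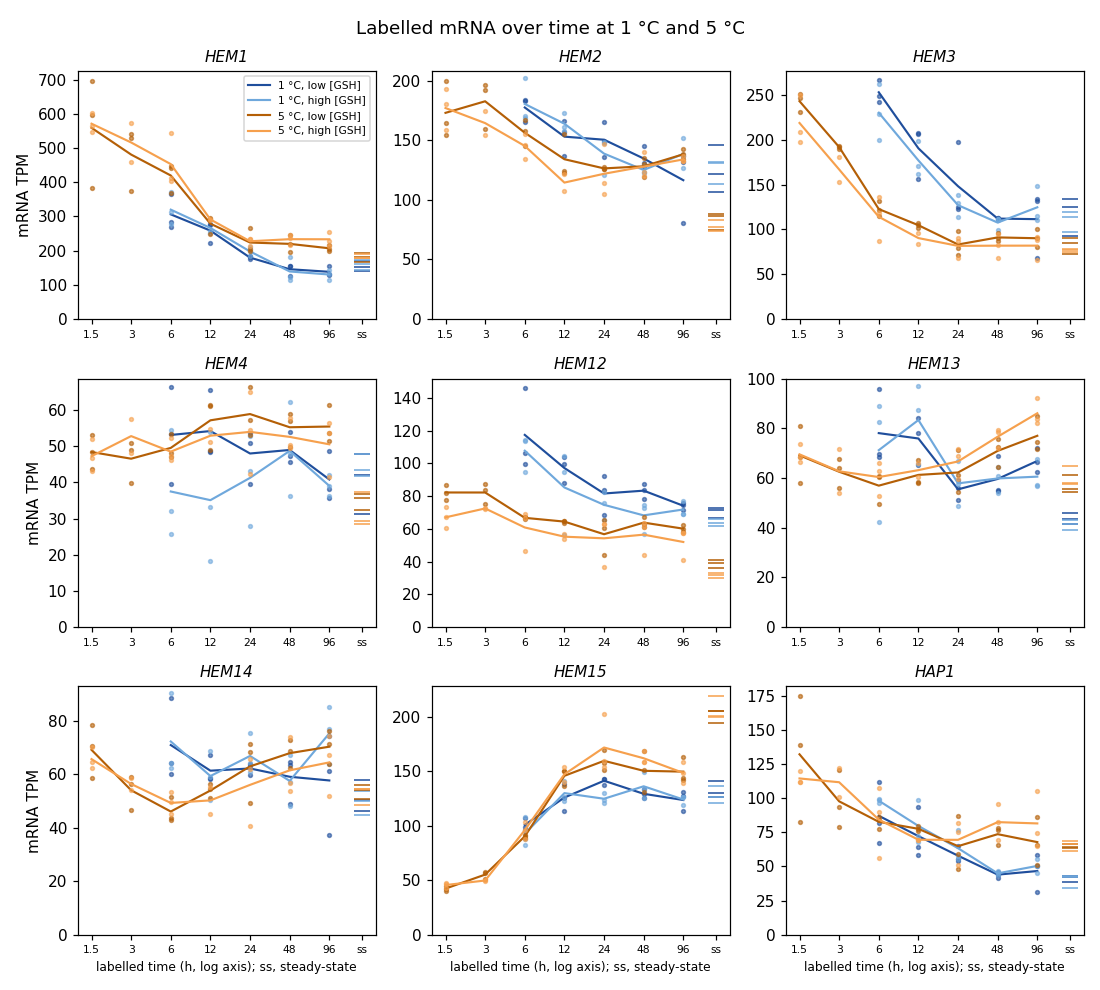
Level of each gene in labelled RNA in mRNA TPM (y axis from 0) by labelled time in h (log axis) at 1 °C and 5 °C; points are libraries, lines are means of 2 or 3, and the dashes at "ss" are the steady-state libraries. At 5 °C low [GSH] the mean of HEM15 went from 42.4 at 1.5 h to 146 at 12 h and 151 at 48 h, and that of HEM1 from 559 to 279 and 220.

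The steps of these courses show where the change took place. The mean level of HEM15 at 5 °C low [GSH] was 42.4, 55.2, 90.3, 146 and 160 mRNA TPM after 1.5, 3, 6, 12 and 24 h, and then 151 and 150 after 48 and 96 h, all below the 202 of steady-state RNA. That of HEM3 was 243, 192, 122.7, 105 and 83.2 over the first 5 times, near its 82.8 in steady-state RNA by 24 h. At 1 °C HEM15 was at 101, 126, 141 and 129 after 6, 12, 24 and 48 h, beside a steady-state mean of 133. HEM1 fell from 306 after 6 h to 146 after 48 h, against 154 in steady-state RNA.

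A falling share did not mean less labelled RNA. Expressed as TPM per 1000 TPM of S. pombe transcripts, HEM1 rose from 0.586, 1.36 and 1.17 after 1.5 h to 1.71, 2.38 and 3.20 after 48 h at 5 °C low [GSH]. HEM15 rose from 0.0680, 0.0965 and 0.0679 to 1.47, 1.28 and 2.22. Both accumulated, HEM15 by the larger factor. The libraries of time 0, which hold RNA pulled down without time to label, had small amounts on this scale, such as 0.0460 for HEM3 at 1 °C low [GSH] against 1.51 after 6 h, although HEM3 took a large share of them (774 ± 291 mRNA TPM, SD, n = 3).

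Of the other genes, HEM2 and HEM12 were called in none of these 4 comparisons (−0.20 to 0.05), and nor was HEM14 (0.06 to 0.29), except at 5 °C low [GSH] with the culture as a block (adjusted p = 0.0487) and at 1 °C high [GSH] without replicate 1 (0.40). HEM4 rose at 1 °C high [GSH] (0.82 ± 0.22) and at 5 °C low [GSH] (0.51 ± 0.23, adjusted p = 0.0431), and HEM13 at 5 °C high [GSH] (0.45 ± 0.19, adjusted p = 0.035). The call of HEM4 was lost when any one culture was left out at 5 °C low [GSH] and without replicate 1 at 1 °C high [GSH], and that of HEM13 was lost when any one culture was left out. The counts were 4 of 9 (1 higher) at 1 °C low [GSH], where 50.3% of all genes were called, and 5 of 9 (2 higher) at 1 °C high [GSH], where 52.9% were. At 5 °C they were 5 of 9 (2 higher) with low [GSH] beside 62.8%, and 4 of 9 (2 higher) with high [GSH] beside 63.5%. The difference in change over time between high and low [GSH], a test added after the data were seen, was called for 0 of the 9 genes at either temperature, beside 0.0345% of all genes at 1 °C and 0.0% at 5 °C (24 genes at an unadjusted p under 0.05, and 0 by DESeq2). The largest estimate was that of HEM4 at 1 °C, 0.58 ± 0.31 (adjusted p = 0.851).

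**Figure D4:**
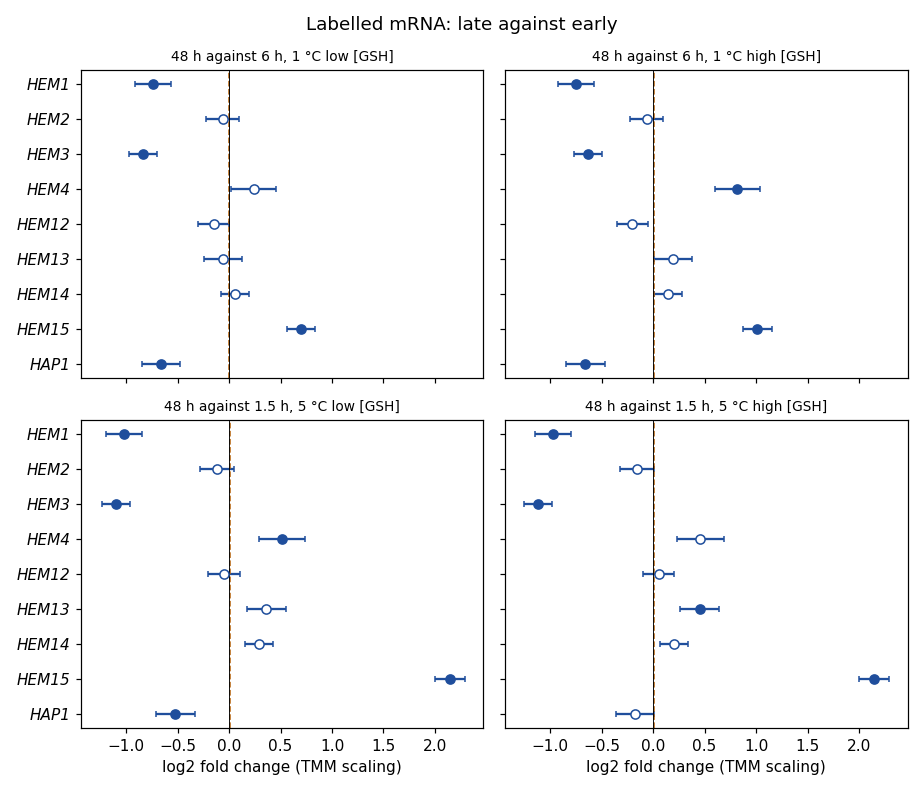
Log2 fold change in labelled RNA between 48 h and the first labelled time (x axis, TMM scaling), with bars of 1 standard error; filled points passed an adjusted p of 0.05 and the dashed line is the median of all tested genes. HEM15 lay furthest to the right in all 4 panels (0.70 to 2.14), and HEM1 and HEM3 lay left of 0 in all 4; with S. pombe library sizes they lie right of 0.

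At 30 °C, labelling for 20 min was compared with 5 min. These libraries were shallow. HEM1 had 2, 956 and 81 reads in the 3 libraries of 5 min, HEM15 had 0, 423 and 16, and HEM13 had 0, 44 and 0. No member was called, with standard errors of 0.43 to 1.86, and 0.0% of all genes passed edgeR's test (493 genes at an unadjusted p under 0.05, 73 by DESeq2). After 20 min HEM1 was at 155, 158 and 207 mRNA TPM, HEM3 at 173, 199 and 226, and HEM15 at 80.7 to 138. Replicate 3, which had the lowest HEM15, again had the highest HAP1, at 182 against 48.3 and 60.1.

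Half-lives were fitted per culture from the amounts per spike-in up to 48 h, after subtraction of time 0, with constant synthesis and first-order loss. They rest on the same libraries as the changes over time and are another description of them. HEM1 and HEM3 had a shorter half-life than the median gene of the same culture in 6 of 6 cultures at 1 °C and 6 of 6 at 5 °C, and HEM15 in 0 of 6 at both. The medians were 4.90 h and 1.78 h for HEM1 at 1 °C and 5 °C, 4.65 h and 1.91 h for HEM3, and 12.2 h and 13.6 h for HEM15, where the medians over all genes were 8.26 h and 6.70 h. HEM4 had the longest median of the 9 genes at 1 °C, 17.45 h, and had 8.635 h at 5 °C. It was below its culture's median in 1 of 6 cultures at each temperature. HEM13 and HEM14 were below it in 4 and 2 of 6 cultures at 1 °C and in 0 of 6 at 5 °C. HAP1 was below its culture's median in 6 of 6 cultures at 1 °C (2.27 to 6.46 h) and in 3 of 6 at 5 °C, where its values spread from 0.952 h to the upper bound of 960 h. At 1 °C the longest values of HEM1, HEM3 and HAP1 were 6.00, 6.03 and 6.46 h, near the first labelled time of 6 h. Most of their fitted half-lives there are thus shorter than the first time sampled. The spread between cultures was wide at 5 °C, where the median gene of a culture had 2.10 to 48.0 h.

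**Figure D5:**
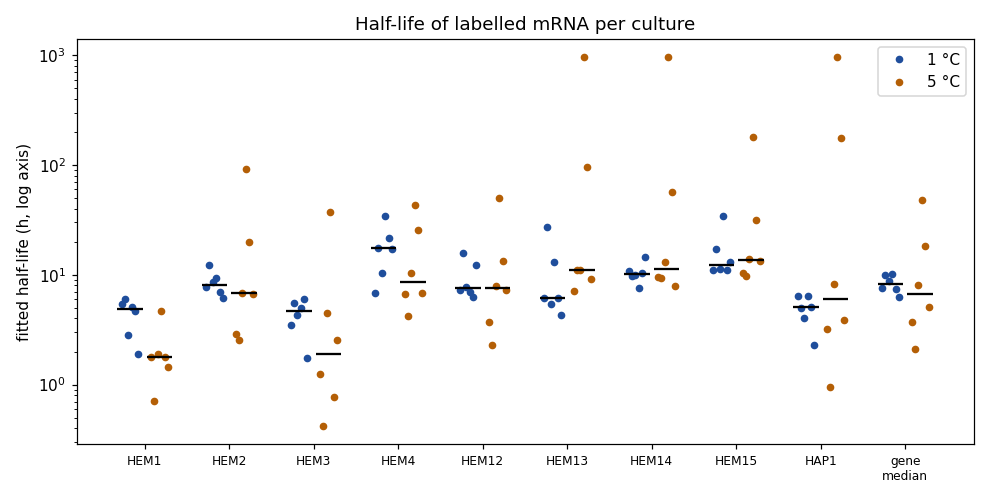
Fitted half-life in h (log axis) of each gene's labelled mRNA in the 6 cultures at 1 °C and the 6 at 5 °C, with low and high [GSH] together; bars are medians, and the last column is the median gene of each culture. HEM1 and HEM3 lie low and HEM15 high at both temperatures, with the median of HEM4 above that of HEM15 at 1 °C. Single 5 °C cultures of HEM13, HEM14 and HAP1 reach the bound of 960 h.

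Between 1 °C and 5 °C, a 2-sided exact permutation test over 6 against 6 cultures called 0 of the 9 genes, and 0.0% of 5721 genes. HEM1 came nearest, with a half-life 2.28 times as long at 1 °C (exact permutation p = 0.0195, adjusted p = 0.186). Its range was 1.88 to 6.00 h at 1 °C and 0.706 to 4.68 h at 5 °C, which overlap. No value at 1 °C exceeded the first labelled time there, 6 h, while labelling at 5 °C was first sampled after 1.5 h. The temperatures were thus fitted on unlike times, and what this does to the ratio was not tested. HEM13, HAP1, HEM14, HEM15 and HEM2 had the opposite sign (ratios 0.273, 0.288, 0.366, 0.681 and 0.898). Of these, HEM13, HEM14 and HEM15 were called when 96 h was included in the fit (exact permutation test, adjusted p = 0.0195, 0.0195 and 0.0274). Under that setting 1533 genes were called. Up to 48 h, the longest values of HEM13, HEM14 and HEM15 at 5 °C came from high [GSH] replicates 1 and 2. These were 960 and 96.5 h for HEM13, 960 and 57.1 h for HEM14 and 182 and 31.6 h for HEM15. The median gene of these cultures had 48.0 and 18.3 h. Replicate 1 is the culture without libraries at 3 h and 12 h, and the part of this in its fits was not tested. With low [GSH] HEM15 had 11.1, 17.1 and 11.3 h at 1 °C and 10.5, 9.76 and 13.8 h at 5 °C, which overlap.

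Over the means of the 32 groups other than time 0, HEM1 went most closely with HAP1 among the 9 genes (Pearson r = 0.82 of log2(mRNA TPM + 1)), HEM3 with HEM12 (r = 0.82) and HEM2 with HEM12 (r = 0.79), while HEM15 ran against HEM3 and HEM1 (r = −0.69 both). The groups share cultures and a labelling course, so this is a description. Among 5575 genes with a mean of at least 10 mRNA TPM, MIG1 was most like HEM1 (r = 0.97), HDA1 most like HEM3 (r = 0.96), PDR5 most like HAP1 (r = 0.96), CWC23 most like HEM13 (r = 0.96) and HSP42 most like HEM15 (r = 0.95). For HEM12 it was SMF2 (r = 0.92), for HEM2 RPB9 (r = 0.90), for HEM14 YER187W (r = 0.90) and for HEM4, the least matched, RMD6 (r = 0.78).

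The genes that supply, use or answer to heme gave the setting. Of 16 genes for heme supply and use, 9 were higher and 4 lower at 1 °C than at 30 °C relative to the typical gene (median 0.51, against 0.03 over all genes, of which 36.9% were higher and 36.4% lower). HMX1, which encodes heme oxygenase, was higher by 1.93 ± 0.10 at 1 °C and by 1.84 ± 0.10 at 5 °C. On the other 2 scales its estimates were 2.16 to 4.22. These scales raise all genes in the cold by nearly the same amount, so a gene already higher stays higher. YFH1, the yeast frataxin gene, was lower by 1.25 ± 0.18 at 1 °C, and higher (1.01) per S. pombe read. Of 11 heme proteins, 9 were lower and 1 higher at 1 °C (median −2.28), and of 9 genes known to depend on HAP1, most of them also in that list, 7 were lower and 0 higher (median −2.23), beside the same shares of all genes. By read share these counts were 8 lower and 2 higher, and 6 lower and 2 higher, where 939 of 5697 genes were lower and 3648 higher. Per S. pombe read the medians were 0.04 and 0.07, with 3 lower and 3 higher and with 2 lower and 3 higher, where 39 of 5697 genes were lower and 5334 higher. YHB1, the flavohemoglobin, was lower on all 3 scales, by 4.69 ± 0.17 relative to the typical gene. CTA1, the peroxisomal catalase, was higher by 2.53 ± 0.24 relative to the typical gene, and hence also on the other 2 scales.

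Against 5 °C, 8 of the 11 heme proteins were lower at 1 °C with low [GSH] and 8 with high [GSH] (medians −0.91 and −0.98), where 1644 and 1697 of 5697 genes were lower and 1700 and 1652 higher. In each, 1 was higher, YHB1 (0.61 ± 0.15 and 0.69 ± 0.15). Per S. pombe read the medians were 0.41 and 0.31. Of the 4 genes of the Hap2/3/4/5 complex, 3 were higher and HAP4, its activating subunit, was lower (−2.10 ± 0.11 and −2.15 ± 0.11), also per S. pombe read (−0.81 and −0.91). The 6 genes for chaperones and other proteins that bind Hap1 were all lower at 1 °C than at 5 °C with either [GSH] (medians −0.91 and −0.97), beside the same counts over all genes, and 5 were lower by read share. On the S. pombe scale 0 were lower and 3 and 2 higher, where 4924 and 4757 of 5697 genes were higher. Of 4 repressors of hypoxic genes, 1 was higher and 0 lower in both. In labelled RNA at 5 °C from 1.5 to 48 h, 7 of 11 heme proteins rose and 0 fell with either [GSH] (medians 1.24 and 1.34), where 1858 and 1889 of 5802 genes rose and 1785 and 1797 fell. This was the direction of HEM15 and not of HEM1, HEM3 or HAP1.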

How the data were processed

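Ribosomal RNA was depleted and the remaining RNA of the yeast cultures was sequenced with a stranded kit. The authors ran Salmon on every library, with a joint set of S. cerevisiae and S. pombe transcripts (build R64 in the submitters' processing notes). The deposited TPM values are shares of the 13700 transcripts, and the deposited estimated counts are Salmon's assigned reads, often fractional. All 109 libraries were used. Here TPM was rescaled over the 5876 nuclear protein-coding genes of R64 (mRNA TPM). Coding lengths equalled those of R64 for 95.3% of genes, so the models hold coding sequence.

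The counts, rounded to whole numbers, entered edgeR's quasi-likelihood test (version 4.0.16, under R 4.3.3) with TMM factors and filterByExpr. P-values were adjusted by Benjamini-Hochberg over all genes tested, and 0.05 was the limit for a call. All 15 steady-state libraries shared 1 fit, as did the 12 summed cold cultures and the cold libraries by time, where libraries of a culture entered as independent. Alternatives were DESeq2 1.42.0, library sizes from summed mRNA reads or S. pombe reads, no filter, all S. cerevisiae transcripts, other sums, each culture left out, and the replicate number (for labelled time, the culture) as a block. Scripts were tested on simulated data. Half-lives were bounded between 0.1 times the first and 20 times the last labelled time. Exact permutation tests used Python 3.11.15 and numpy 2.4.6.

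The members and lists were chosen with earlier results of these data known. The text names all 9 members, up to 2 genes per direction and list with the smallest adjusted p, and the gene most like each member; CTA1 and HAP4 in comparisons are named by the same rule. In labelled time, same-numbered libraries come from 1 culture. Elsewhere same-numbered libraries deviated together (correlations over 0.1 in all 3 pairs) only for GSH in the sums at 5 °C (0.128, 0.524 and 0.198).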

Additional observations from a re-analysis of the deposited data

How the results depend on the processing

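Library sizes decided the most. With summed mRNA reads, 2 members were called at 1 °C against 30 °C, 8 at 5 °C against 30 °C and 4 in the labelled sums at 1 °C against 5 °C with low [GSH], and the added test of time and GSH at 1 °C called 1 gene; the log2 changes with a call on either scale that turned were those at 1 °C against 30 °C of HEM1 (0.34), HEM3 (0.28), HEM4 (0.11), HEM13 (0.16) and HEM15 (0.017) and in the sums that of HEM14 (0.020). With S. pombe reads the changes of this kind that turned positive were, at 1 °C against 30 °C, HEM1 2.02, HEM2 1.49, HEM3 1.92, HEM4 1.81, HEM12 1.67, HEM13 1.84, HEM15 1.69 and HAP1 1.83, and at 5 °C against 30 °C HEM3 0.24 and HEM4 0.37. At 1 °C against 5 °C they were HEM1 0.97, HEM13 0.80, HEM14 1.16, HEM15 0.57 and HAP1 0.52 with low [GSH], and HEM1 0.97, HEM13 0.64, HEM14 1.15, HEM15 0.50 and HAP1 0.45 with high [GSH]. In the low [GSH] sums they were HEM1 0.35, HEM2 0.93, HEM4 0.63, HEM13 0.77, HEM14 0.87, HEM15 0.71 and HAP1 0.52. Over labelled time they were HEM1 0.65, HEM2 1.42, HEM3 0.62, HEM12 1.34, HEM13 1.35 and HAP1 0.75 at 1 °C low [GSH], and HEM1 0.64, HEM2 1.37, HEM3 0.79, HEM12 1.20 and HAP1 0.76 at 1 °C high [GSH]. At 5 °C they were HEM1 1.10, HEM2 2.01, HEM3 1.02, HEM12 2.08 and HAP1 1.61 with low [GSH], and HEM1 1.56, HEM2 2.41, HEM3 1.45 and HAP1 2.41 with high [GSH]. S. pombe reads also gave 0 members and 1941 genes in the high [GSH] sums, 9 members in each 5 °C time comparison, 4975 and 4761 genes over time at 1 °C low and high [GSH], and 1 gene at 30 °C. For GSH they gave 29, 1 and 3 genes in steady-state RNA (1 °C, 5 °C, difference) and 15, 2 and 17 in the sums. The cause of these shifts was not tested.

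DESeq2 called 1 and 6 genes for GSH in the sums at 1 °C and 5 °C, 10 in the added test at 1 °C and 73 at 30 °C, and all S. cerevisiae transcripts gave 1 for GSH in the sums at 5 °C. Half-lives with 96 h included gave 3 members and 1533 genes, S. pombe protein-coding transcripts alone 274 genes and a weighted fit 797. Leaving out 1 culture gave 0 to 2, 0 to 11 and 0 to 1 genes for GSH in the sums (1 °C, 5 °C, difference), 0 to 23 in the added test at 1 °C, 0 to 1 at 30 °C, and 2 to 4 and 3 to 4 members over time at 1 °C and 5 °C low [GSH]. With the replicate block HEM1 at 1 °C against 30 °C (−0.27, adjusted p = 0.0501) and HEM4 at 1 °C against 5 °C with high [GSH] (0.39, adjusted p = 0.0589) lost their calls, and HAP1 at 5 °C against 30 °C (0.43, adjusted p = 0.0406) and HEM14 over time at 5 °C low [GSH] (0.29, adjusted p = 0.0487) gained one (edgeR). The block changed no other member call, and 4137 genes were called at 1 °C against 30 °C. Deeper libraries weigh more in the labelled sums. Summing other labelled times gained 2 and lost 2 calls among 45 member results. Scaling the libraries to equal totals before summing gained 1 call and lost 0 among 45. The 30 °C labelled libraries were the shallowest, and whether depth set their few calls was not tested.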
